A study of Mus musculus with 12 samples.

Results

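A set of 10 genes of amino acid supply and of the ATF4 stress response was followed in mouse 4T1 cells, a mammary carcinoma line from BALB/c mice, out of 35521 annotated genes measured. The genes were listed by symbol: the transporter chains *Slc7a5*, *Slc3a2* and *Slc7a11*, the synthesis enzymes *Asns*, *Psat1* and *Phgdh*, and the stress response genes *Atf4*, *Ddit3*, *Trib3* and *Chac1*. The set was chosen by the change of *Slc7a5* between Spl-Gr1+CD11b+-primed and parental cells. The RNA of *Slc7a5* was lower, not higher, in the primed cells, so its values are given as a description with no p-value, as are those of every member in that comparison, where calls appear only as counts. All 10 genes were among the 12555 genes with enough counts to be tested.

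Bulk RNA-Seq was done on 12 libraries in 3 groups of 4: Tu-Gr1+CD11b+-primed 4T1 cells, Spl-Gr1+CD11b+-primed 4T1 cells and parental 4T1 cells. Primed cells shared a well for 48 hours with Gr1+ cells taken by magnetic separation from the tumor (Tu) or the spleen (Spl) of BALB/c mice bearing 4T1 tumors, behind a Transwell membrane with 0.4 µm pores, in DMEM with Glutamax, serum and nonessential amino acids. The labels date that isolation to day 21 after injection. No library of 4T1 cells cocultured with Gr1+ cells from tumor-free mice was analysed here, and the labels describe the third group only as parental cells. Nothing in the sources states that the 4 libraries of a group came from separate cultures or mice, so p-values measure the spread between these libraries, which may be technical.

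The libraries held 24566183 to 31637755 reads (median 27277534). The libraries of the primed cells held a larger share of reads on retained-intron and nonsense-mediated-decay transcript models (5.37% to 6.13%) than those of parental cells (3.93% to 4.35%), and a smaller share on mitochondrial genes (2.09% to 3.15% against 4.24% to 6.73%). The part of these shares in the differences below was not tested. Of 19 granulocyte and myeloid markers only 4 had enough counts for a test, and *Mpo*, *Elane*, *Camp*, *Ngp*, *Mmp8*, *Tyrobp* and *Retnlg* were at 0 in every library. The summed level of the 19 markers was 226 to 248 CPM (counts scaled to library size) in Tu-primed, 238 to 247 CPM in Spl-primed and 173 to 205 CPM in parental cells, and nearly all of it was *Itgb2*. Of the 4 tested, 3 were called higher in Tu-primed and 1 in Spl-primed against parental cells. Between the primed groups 2 were higher in Tu-primed cells, *Ltf* (log2 1.16) and *S100a8* (log2 0.93). The part of these markers in the rises below was not tested. Of 8 epithelial markers, 7 were measured well enough for a test and *Krt5* was at 0. Their sum was 1592 to 1933 CPM in Tu-primed, 2007 to 2148 CPM in Spl-primed and 2268 to 3391 CPM in parental cells, nearly all of it *Krt8* and *Krt18*. Against parental cells 4 of the 7 were called lower in Tu-primed, and 3 lower and 1 higher in Spl-primed cells. The higher marker was *Epcam* (log2 0.30), at means of 70.7 CPM in parental, 87.1 CPM in Spl-primed and 76.5 CPM in Tu-primed cells. In bulk samples, fewer cells of a type and less RNA per cell cannot be told apart.

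SLC7A5 carries leucine and other large neutral amino acids into the cell, and SLC7A11 takes up cystine in exchange for glutamate. Each is a light chain that reaches the cell surface joined to the heavy chain SLC3A2. When amino acids run short or proteins misfold, kinases phosphorylate eIF2α, most translation slows, and the transcription factor ATF4 is translated instead. ATF4 then raises genes of amino acid uptake and synthesis and, under lasting stress, *Ddit3* (CHOP), *Trib3* and *Chac1*. Tumor cells often keep this program active, and it is read widely from the RNA of the genes followed here.

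Levels of different genes were compared as CPM per kilobase of effective transcript length. In parental cells *Phgdh* was the most abundant of the 10 (259.7 ± 21.4 CPM per kilobase, mean ± SD, n = 4 here and below), followed by *Psat1* (137 ± 14.7), *Slc3a2* (111 ± 5.73) and *Atf4* (83.7 ± 10.7). *Slc7a5* (56.8 ± 4.99), *Asns* (35.7 ± 1.77) and *Slc7a11* (21.4 ± 2.78) came next on that scale. *Trib3* (5.69 ± 0.170), *Ddit3* (5.15 ± 1.87) and *Chac1* (4.60 ± 0.487) were the scarcest. Down to *Slc7a11* the libraries of neighbours in this order did not overlap, whereas those of *Ddit3* overlapped both *Trib3* and *Chac1*. In Spl-primed cells *Phgdh* (176 ± 16.8) still led, and *Atf4* (107 ± 7.53), *Psat1* (95.9 ± 5.89) and *Slc3a2* (87.5 ± 7.43) followed with overlapping libraries between neighbours. In Tu-primed cells *Atf4* (105 ± 2.49) and *Slc3a2* (105 ± 11.8 CPM per kilobase) were level with each other below *Phgdh* (146 ± 9.94) and above *Psat1* (86.7 ± 7.50), whose libraries overlapped those of *Slc3a2*. *Slc7a5* (37.0 ± 4.36) and *Slc7a11* (30.01 ± 5.57) overlapped in Tu-primed cells, which they did not in parental or Spl-primed ones.

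ATF4 binds, with a C/EBP partner, a composite element called CARE, searched here as TGATGNAA on both strands of the RefSeq promoters (GRCm38.p6, 250 bases before to 50 after each start). The element was in 3.97% of 32851 promoters, and a promoter was given for 9 of the 10 members, all but *Slc7a5*. It was found in 4 of them, *Slc7a11*, *Chac1*, *Trib3* and *Asns*, whose windows are shown because they hold it. Capitals mark the element, and where it lies on the opposite strand the capitals show its reverse complement. The *Slc7a11* window holds it on both strands. Each window lies on the gene's own strand, at chr3:50443637-50443696 (minus) for *Slc7a11*, chr2:119351023-119351082 (plus) for *Chac1*, chr2:152344028-152344057 (minus) for *Trib3* and chr6:7693214-7693243 (minus) for *Asns*.
Slc7a11: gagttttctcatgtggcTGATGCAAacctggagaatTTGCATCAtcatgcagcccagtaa
Chac1: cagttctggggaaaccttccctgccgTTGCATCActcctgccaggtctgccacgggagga
Trib3: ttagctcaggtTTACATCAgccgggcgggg
Asns: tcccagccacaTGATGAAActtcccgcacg

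Counted from the RefSeq start site, the elements lay at -66 to -59 and -47 to -40 in *Slc7a11*, at -193 to -186 in *Chac1*, at 15 to 22 in *Trib3* and at -23 to -16 in *Asns*. These starts differ from the gene coordinates given below. By those coordinates the *Asns* window lies within the gene, and most of the *Trib3* window lies upstream of it. An antioxidant response element, the NRF2 motif searched as TGACNNNGC, was found in the promoters of *Phgdh* and *Asns* and in 12.4% of all promoters. The E-box CACGTG (7.15% of all promoters) and the ER stress element (0.119%) were in none of the 9 promoters. A match describes these letters only and is no evidence of binding.

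The first question was how far these genes differed from the parental level in cells cocultured with either kind of Gr1+ cell. *Slc7a5* (GRCm38 chr8:121881150-121907694, minus strand) was at 171, 157, 168 and 163 CPM in the parental libraries and at 109, 112, 113 and 98.8 CPM in the Spl-primed ones, the contrast it was chosen on. The Tu-primed libraries held 108, 98.6, 96.7 and 98.2 CPM. Every primed library lay below every parental one, and the primed groups overlapped. On the log2 scale the difference from parental cells was -0.61 (SE 0.06) in Spl-primed and -0.71 (SE 0.06) in Tu-primed cells, or 34.3% and 39.1% lower, and that between the primed groups was -0.11 (SE 0.06).

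**Figure D1:**
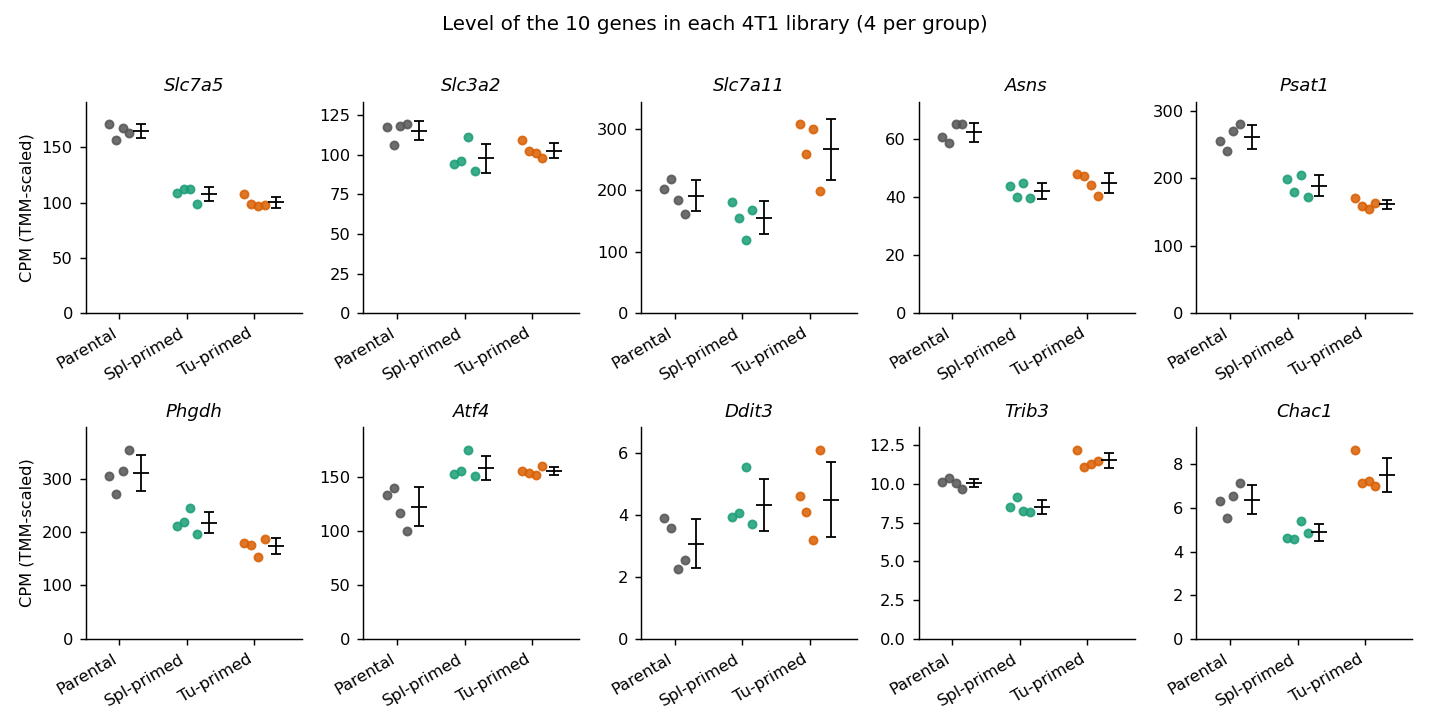
Level of each of the 10 genes in every library, in CPM scaled by TMM factors (vertical axes start at 0), for parental, Spl-primed and Tu-primed 4T1 cells; points are libraries, bars are mean ± SD of 4. *Slc7a5*, *Asns*, *Psat1* and *Phgdh* lie lower in both primed groups than in any parental library, *Atf4* lies higher, and *Slc7a11*, *Trib3* and *Chac1* lie higher in Tu-primed than in any Spl-primed library.

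The heavy chain *Slc3a2* (chr19:8706882-8723369, minus strand) moved less than *Slc7a5*. It was at 118, 106, 118 and 119 CPM in parental, 94.5, 95.9, 111 and 90.1 CPM in Spl-primed and 109, 102, 101 and 97.9 CPM in Tu-primed libraries. The 3 groups overlapped. Against parental cells the log2 difference was -0.24 (SE 0.07) in Spl-primed and -0.17 (SE 0.07, edgeR quasi-likelihood test with Benjamini-Hochberg adjustment over all genes, adjusted p = 0.0453) in Tu-primed cells. The Tu-primed call was lost without any 1 of 8 of the 12 libraries (Tu 2, Tu 3, Tu 4, Spl 1, Spl 2, parental 1, parental 3 or parental 4; edgeR adjusted p 0.0506 to 0.109) with a transcript length offset (adjusted p = 0.435), and with upper-quartile scaling, no filter or a stricter filter on low counts, the replicate block, protein-coding transcripts only, the authors' signal and rescaled TPM. With TPM as deposited the sign of *Slc3a2* turned in both comparisons, where TPM lay higher than in parental cells by a median over all tested genes of 0.40 in Tu-primed and 0.34 in Spl-primed cells on the log2 scale. The mitochondrial transcript *mt-Atp8* alone had a TPM of 102349 to 149854 in parental, 50627.6 to 70519.5 in Spl-primed and 45249.1 to 57564.5 in Tu-primed libraries. Changes are therefore given relative to that shift, on TMM-scaled counts, and TPM is used only for ratios within a library.

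*Slc7a11* (chr3:49892526-50443614, minus strand), the cystine carrier, went apart from the other transporter chains. It was at 203, 219, 184 and 161 CPM in parental libraries, at 181, 155, 119 and 169 CPM in Spl-primed ones and at 308, 260.2, 301 and 199 CPM in Tu-primed ones. Every Tu-primed library lay above every Spl-primed one, and the lowest Tu-primed library lay within the parental range. *Slc7a11* rose in Tu-primed over parental cells by 0.48 on the log2 scale (SE 0.15, edgeR adjusted p = 0.0116). In Spl-primed cells it was 0.30 below parental (SE 0.15), with overlapping groups. That sign turned with TPM as deposited, at means of 23.2 in Spl-primed against 21.6 in parental libraries.

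The ratio of light to heavy chain RNA, from TPM within a library, fell into a different order for the 2 light chains. *Slc7a5* per *Slc3a2* was 0.514 ± 0.038 in parental (range 0.474 to 0.559), 0.421 ± 0.037 in Spl-primed (0.376 to 0.465) and 0.357 ± 0.069 in Tu-primed libraries (0.310 to 0.460, mean ± SD, n = 4 each). All primed libraries lay below all parental ones. *Slc7a11* per *Slc3a2* was 0.195 ± 0.034 in parental (0.161 to 0.241), 0.204 ± 0.049 in Spl-primed (0.138 to 0.246) and 0.285 ± 0.028 in Tu-primed libraries (0.250 to 0.317). The Tu-primed ratios of *Slc7a11* lay above all others.

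**Figure D2:**
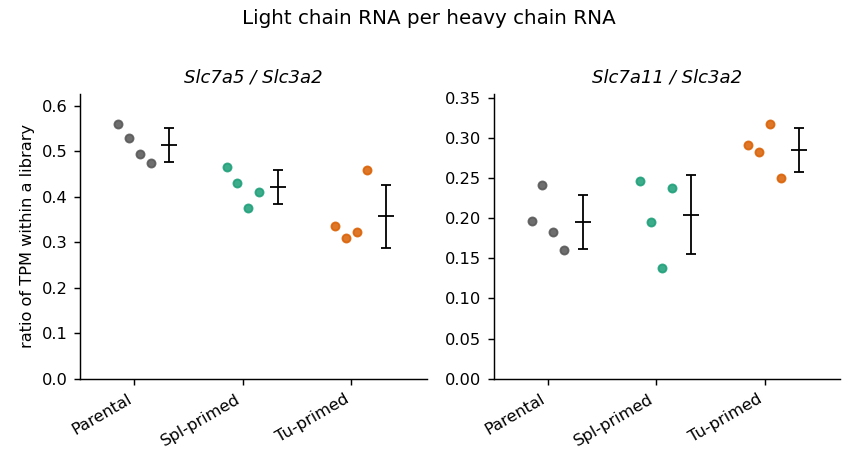
TPM of the light chains *Slc7a5* (left) and *Slc7a11* (right) divided by that of the heavy chain *Slc3a2* in each library, for the 3 groups; points are libraries and bars mean ± SD of 4, on axes that start at 0. The *Slc7a5* ratio is highest in parental cells (0.514) and the *Slc7a11* ratio in Tu-primed cells (0.285).

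The enzymes of synthesis were lower in both primed groups. *Phgdh* (chr3:98313170-98339990, minus strand), which opens serine synthesis, was at 305, 271, 315 and 353 CPM in parental, 211, 218, 245 and 196 CPM in Spl-primed and 180.1, 175, 154 and 187 CPM in Tu-primed libraries. *Psat1* (chr19:15904678-15947337, minus strand), the next enzyme, was at 255, 240.4, 269.9 and 280.1 CPM in parental, 199, 179.7, 205 and 172 CPM in Spl-primed and 170.0, 159, 154 and 163 CPM in Tu-primed libraries. On TMM-scaled CPM both genes stepped down from parental to Spl-primed to Tu-primed with no overlap between any 2 groups. Per kilobase of effective length the primed groups overlapped. For *Psat1* Spl 4 (89.4) lay below Tu 3 (92.5), and for *Phgdh* Spl 4 (151.0) lay below Tu 4 (153.3). Against parental cells *Phgdh* fell by 0.84 (SE 0.09, edgeR adjusted p = 3.89e-06) and *Psat1* fell by 0.69 (SE 0.07, edgeR adjusted p = 2.17e-06) on the log2 scale in Tu-primed cells, or 44.1% and 38.2%. In Spl-primed cells they lay 30.1% and 27.8% below parental.

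*Asns* (chr6:7675169-7693254, minus strand), which makes asparagine, was at 60.6, 58.6, 65.1 and 65.1 CPM in parental, 43.7, 39.9, 44.9 and 39.5 CPM in Spl-primed and 47.8, 47.1, 44.3 and 40.4 CPM in Tu-primed libraries. The primed groups overlapped each other and neither overlapped the parental one. *Asns* fell by 0.47 on the log2 scale in Tu-primed cells (SE 0.07, edgeR adjusted p = 3.69e-05), or 28.0%, and lay 32.6% below parental in Spl-primed cells.

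RNA of the transcription factor *Atf4* itself (chr15:80255184-80257541, plus strand) went the other way. It was at 133, 140.2, 116 and 99.6 CPM in parental, 153, 156, 175 and 151 CPM in Spl-primed and 156, 154, 152 and 160.2 CPM in Tu-primed libraries. Every primed library lay above every parental one. *Atf4* rose by 0.34 on the log2 scale in Tu-primed cells (SE 0.09, edgeR adjusted p = 0.00428), or 26.9%, and lay 0.37 (SE 0.09) above parental in Spl-primed cells, although ATF4 activity is set largely by translation, which RNA levels do not measure.

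*Ddit3* (chr10:127290774-127296288, plus strand), whose product CHOP promotes cell death under lasting stress, rested on only 54 to 176 reads a library. The annotation holds 2 genes with this symbol, and the one with more reads was used. Its level was 3.91, 3.58, 2.26 and 2.56 CPM in parental, 3.95, 4.07, 5.56 and 3.72 CPM in Spl-primed and 4.61, 4.12, 3.18 and 6.11 CPM in Tu-primed libraries. The groups overlapped. The log2 difference of 0.54 (SE 0.22) between Tu-primed and parental cells passed the test by a narrow margin (edgeR adjusted p = 0.0458) and missed it without any 1 of 8 libraries (Tu 1, Tu 2, Tu 4, Spl 1, Spl 2, Spl 4, parental 3 or parental 4; edgeR adjusted p 0.0519 to 0.171), with limma-voom, with the 8 compared libraries only, with the replicate block, with protein-coding transcripts only, with a transcript length offset, with the authors' signal and with rescaled TPM.

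*Trib3* (chr2:152337422-152344032, minus strand), a pseudokinase that damps the response, was at 10.1, 10.4, 10.1 and 9.71 CPM in parental, 8.50, 9.19, 8.24 and 8.18 CPM in Spl-primed and 12.2, 11.1, 11.3 and 11.5 CPM in Tu-primed libraries. The 3 groups did not overlap, with Tu-primed cells highest and Spl-primed cells lowest. *Trib3* rose in Tu-primed over parental cells by 0.20 on the log2 scale (SE 0.07, edgeR adjusted p = 0.0202), a call that missed the threshold without Tu 1 (0.17, edgeR adjusted p = 0.0676), with DESeq2 (0.0597), with no filter on low counts (0.0574) and with the authors' signal (limma, 0.0578). In Spl-primed cells it lay 0.24 (SE 0.07) below parental, a sign that turned with TPM as deposited.

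*Chac1* (chr2:119351229-119354381, plus strand), which degrades glutathione, was at 6.30, 5.52, 6.54 and 7.15 CPM in parental, 4.64, 4.58, 5.41 and 4.87 CPM in Spl-primed and 8.66, 7.15, 7.24 and 7.01 CPM in Tu-primed libraries. Spl-primed libraries lay below all others, and the Tu-primed and parental groups overlapped. The log2 difference between Tu-primed and parental cells was 0.24 (SE 0.10, edgeR adjusted p = 0.0657), which did not pass. It passed without parental 4 (0.29, edgeR adjusted p = 0.0345), with at least 10 counts in every library (0.0453), with protein-coding transcripts only (0.0392) and with TPM as deposited. In Spl-primed cells *Chac1* lay 0.39 (SE 0.11) below parental, again with the sign turned with TPM as deposited.

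Of the 10 members, 4 were called higher and 5 lower in Tu-primed against parental cells. There edgeR called 59.2% of all tested genes (31.2% higher and 28.0% lower). Whether calls were more frequent in the set than among all genes was not tested. The 5 lower members include *Slc7a5*, on which the set was chosen. The groups of 2 members did not overlap upward and those of 4 did not downward, beside 55.5% of all genes (28.6% and 26.9%). In Spl-primed against parental cells 1 member was called higher and 7 lower, beside 48.2% of all genes (25.7% and 22.5%), and 1 and 6 did not overlap, beside 39.6% (21.3% and 18.3%). Nothing is read from the latter counts, since the set was chosen on that contrast. The median log2 fold change of the members was 0.01 in Tu-primed and -0.34 in Spl-primed against parental cells, and that of all genes 0.02 in both. The Tu-primed comparisons share libraries with the contrast that chose the set, parental in one case and Spl-primed in the other, so they are not independent of it.

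The second question was whether Gr1+ cells from tumor and from spleen left the same levels, which is the comparison the series was designed for. There 3 members were called higher, *Slc7a11*, *Trib3* and *Chac1*, and 1 lower, *Phgdh*, where 7.63% of all genes were called (4.66% higher and 2.97% lower). No overlap was seen for 3 members upward and 2 downward, beside 17.0% of all genes (8.51% in each direction). *Slc7a11* was 1.71-fold higher in Tu-primed than in Spl-primed cells (log2 0.78, SE 0.15, edgeR adjusted p = 0.00437), *Chac1* 1.54-fold (log2 0.62, SE 0.11, edgeR adjusted p = 0.00205) and *Trib3* 1.35-fold (log2 0.44, SE 0.07, edgeR adjusted p = 0.000854). The 3 rises were seen in all 4 Tu-primed libraries against all 4 Spl-primed ones, and the calls held in each of the 25 alternative settings, among them leaving out each library in turn. Among the members with a CARE element in the promoter, *Asns* did not pass (log2 0.10, SE 0.07, edgeR adjusted p = 0.429), and *Phgdh* had no CARE element. The granulocyte markers *Ltf* and *S100a8* were also higher in Tu-primed than in Spl-primed cells, at means of 4.16 against 1.86 CPM and 2.83 against 1.49 CPM. Parental cells held them at 1.79 and 1.84 CPM. *Itgb2* and *Cxcr2*, the other markers tested, were not called. Among the scarce markers *S100a9* had 0 reads in every primed library. *Ptprc* had 1 to 4 in Tu-primed against 1 to 7 in Spl-primed libraries, and *Lyz2* 2 to 6 against 1 to 3. The part of these markers here was not tested.

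*Phgdh* was 20.1% lower in Tu-primed than in Spl-primed cells (log2 -0.32, SE 0.09, edgeR adjusted p = 0.0361). That call was lost without any 1 of 8 libraries (Tu 1, Tu 2, Tu 3, Spl 1, Spl 2, Spl 3, parental 1 or parental 3; edgeR adjusted p 0.0507 to 0.134, log2 -0.25 to -0.34). *Psat1* lay 14.5% lower without passing (log2 -0.23, SE 0.07, edgeR adjusted p = 0.0553). It passed without Spl 4, parental 2 or parental 4 (edgeR adjusted p 0.0305 to 0.0442), with DESeq2 (0.0295) and with protein-coding transcripts only (edgeR, 0.0428). Over the settings that kept all libraries its log2 difference was -0.25 to -0.086. *Slc3a2* (log2 0.07, SE 0.07), *Atf4* (log2 -0.03, SE 0.09) and *Ddit3* (log2 0.06, SE 0.21) had edgeR adjusted p of 0.607, 0.888 and 0.903. Over the members the median log2 difference was 0.06, against -0.01 for all genes.

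**Figure D3:**
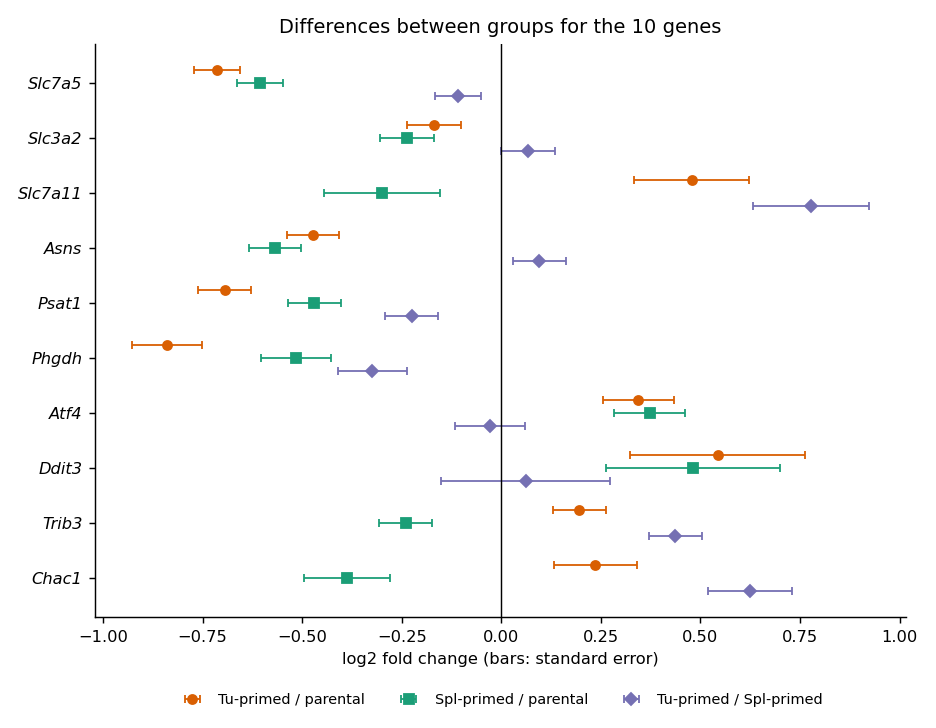
Log2 fold change of each of the 10 genes (horizontal axis) in the 3 comparisons between groups of 4 libraries; points are edgeR estimates and bars 1 standard error. Tu-primed over Spl-primed (diamonds) is above 0 by 0.78 for *Slc7a11*, 0.62 for *Chac1* and 0.44 for *Trib3*. On TMM-scaled counts, though not on TPM as deposited, these lie on opposite sides of 0 in Tu-primed and Spl-primed cells against parental ones.

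Within groups, some members varied together from library to library. After each group's mean was removed, Pearson's r over the 12 libraries was 0.83 for *Psat1* with *Phgdh*, 0.80 for *Slc3a2* with *Chac1*, 0.77 for *Slc3a2* with *Psat1* and 0.76 for *Slc7a5* with *Slc3a2*. Of the 45 pairs 18 had a value below 0, the median was 0.14, and the lowest were *Slc7a11* with *Phgdh* (-0.78) and with *Psat1* (-0.46). These values describe 12 libraries that share depth and scaling and carry no test.

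The genes whose log2 CPM followed *Slc7a5* most closely over the 12 libraries were *Blmh*, *Usp39* and *Nol6* (Pearson's r 0.99 each) and *Tnfrsf21* and *Cavin1* (0.98 each). Each had its highest mean in parental cells, for example *Nol6* at 111 CPM against 78.5 in Spl-primed and 70.9 in Tu-primed cells. The choice itself favours that order, since r was taken over all 12 libraries with the group means kept. The choice of these 5 depended on the scale. On TPM as deposited *Usp39* ranked 12, *Nol6* 26, *Tnfrsf21* 46, *Cavin1* 114 and *Blmh* 661.

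Other genes of the same pathways were counted in 8 lists of 139 genes, of which 125 were tested. In Tu-primed against parental cells 33 rose and 64 fell, with a median log2 fold change of -0.20 (all genes 0.02), and in Spl-primed cells 24 rose and 58 fell, with a median of -0.16 (all genes 0.02). As shares of the tested genes, 26.4% rose and 51.2% fell in Tu-primed cells (31.2% and 28.0% of all genes) and 19.2% and 46.4% in Spl-primed cells (25.7% and 22.5% of all genes). Between the primed groups 10 were higher and 7 lower in Tu-primed cells, or 8.0% and 5.6% beside 4.66% and 2.97% of all genes. The counts of each list below stand beside the same shares of all genes. With a transcript length offset the counts between the primed groups were 2 and 3. The calls lost there included those of *Cth*, *Farsa*, *Glul*, *Hmox1*, *Osgin1*, *Ppp1r15a*, *Slc6a9*, *Txnip* and *Vldlr*. With TPM as deposited the split turned to 63 higher and 7 lower in Tu-primed and 61 and 4 in Spl-primed cells against parental ones.

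Cytosolic tRNA synthetases, which load amino acids onto tRNA, moved in one direction on TMM-scaled counts. Of 20 genes, 19 fell in Tu-primed and 17 in Spl-primed against parental cells, with medians of -0.40 and -0.36, whereas TPM as deposited gave 6 higher in each. *Aars* fell from a mean of 284 CPM in parental to 202 CPM in Spl-primed (log2 -0.49, SE 0.05, edgeR adjusted p = 1.33e-05) and 197 CPM in Tu-primed cells (log2 -0.53, SE 0.05, edgeR adjusted p = 3.33e-06). *Vars* fell from 629 to 465 CPM in Spl-primed and 416 CPM in Tu-primed cells (log2 -0.60, SE 0.08, edgeR adjusted p = 3.12e-05 in the latter). *Lars* passed in neither comparison. Between the primed groups *Farsa* alone was called (log2 -0.21, edgeR adjusted p = 0.0457), and that call was lost without any 1 of 8 libraries (Tu 1, Tu 2, Tu 3, Spl 1, Spl 2, Spl 3, parental 1 or parental 3).

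Of 19 further genes of amino acid and one-carbon synthesis, 12 fell and 3 rose in Tu-primed and 10 fell and 3 rose in Spl-primed cells against parental ones (medians -0.33 and -0.25). *Shmt2*, which passes serine carbon into the mitochondrial folate pool, was at 256 CPM in parental, 188 CPM in Spl-primed (log2 -0.45, edgeR adjusted p = 0.000688) and 158 CPM in Tu-primed cells (log2 -0.70, edgeR adjusted p = 1.3e-05). *Mthfd2*, the next mitochondrial folate enzyme, fell by 0.50 in Tu-primed cells (edgeR adjusted p = 1.29e-05), and *Aldh18a1* of proline synthesis by 0.38 (edgeR adjusted p = 0.000658). *Ass1*, which makes argininosuccinate, fell most in the list, from 7.84 CPM in parental to 4.00 CPM in Spl-primed (log2 -0.97, edgeR adjusted p = 0.000181) and 3.09 CPM in Tu-primed cells (log2 -1.34, edgeR adjusted p = 8.72e-06). *Psph*, the enzyme after *Psat1*, differed by -0.10 in Spl-primed cells without passing and by -0.18 in Tu-primed cells (edgeR adjusted p = 0.0401), and that call was lost without any 1 of 5 libraries (Tu 2, Tu 3, Tu 4, parental 1 or parental 4). *Pycr1* differed by -0.25 in both without passing.

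*Cbs*, of cysteine synthesis, led the genes that rose, by 0.84 in Spl-primed (edgeR adjusted p = 0.0303) and 0.78 in Tu-primed cells (edgeR adjusted p = 0.0363), on fewer than 20 reads a library. Its calls were lost without 1 of 6 and 1 of 7 libraries (Spl 1, Spl 2, Spl 4, parental 1, parental 3 or parental 4, and Tu 2, Tu 3, Tu 4 or any parental library). *Cth*, the next enzyme, was 0.34 lower in Tu-primed than in Spl-primed cells (edgeR adjusted p = 0.0170), lost without Tu 2, Tu 3, Spl 1 or Spl 3. Its rise of 0.21 in Spl-primed over parental cells (edgeR adjusted p = 0.0381) was lost without Tu 2, Spl 1, Spl 2, Spl 3, parental 3 or parental 4. *Gpt2*, which makes alanine, rose by 0.26 in Tu-primed over parental cells (edgeR adjusted p = 0.0284, lost without Tu 2, parental 3 or parental 4, with DESeq2, with no filter on low counts and with a transcript length offset). *Mthfd1*, the cytosolic folate enzyme, had the larger decrease of the 2 genes of the list called lower between the primed groups (log2 -0.35, SE 0.06, edgeR adjusted p = 0.00174). *Glul*, which makes glutamine, was 0.17 higher in Tu-primed than in Spl-primed cells (edgeR adjusted p = 0.0272), a call lost without any single Tu library, Spl 1, Spl 2 or parental 3.

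The other amino acid transporters split, with 18 of 27 tested, 4 that rose and 6 that fell in each primed group against parental cells, and medians of -0.01 (Tu) and -0.03 (Spl). The glutamine and neutral amino acid carrier *Slc1a5* fell from 133 CPM in parental to 92.2 CPM in Spl-primed (log2 -0.53, edgeR adjusted p = 0.000118) and 78.6 CPM in Tu-primed cells (log2 -0.76, edgeR adjusted p = 3.34e-06). The arginine and lysine carrier *Slc7a1* fell from 197 to 125 CPM (log2 -0.65, edgeR adjusted p = 3.34e-05) and 120 CPM (log2 -0.71, edgeR adjusted p = 7.61e-06). *Slc38a2*, a neutral amino acid carrier known for its response to amino acid shortage, was at 415, 465 and 478 CPM in parental, Spl-primed and Tu-primed cells and did not pass in either comparison (edgeR adjusted p = 0.124 and 0.0512). It passed in the former without parental 2 and in the latter without Tu 4, Spl 3, parental 1 or parental 2 and with DESeq2. *Slc1a4* fell by 0.26 in Spl-primed (edgeR adjusted p = 0.00168) and 0.22 in Tu-primed cells (edgeR adjusted p = 0.00391), and *Slc7a6* passed in neither.

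*Slc38a9*, the lysosomal arginine sensor, rose from 3.59 CPM in parental to 7.93 CPM in Spl-primed (log2 1.15, edgeR adjusted p = 3.38e-06) and 7.46 CPM in Tu-primed cells (log2 1.06, edgeR adjusted p = 3.34e-06). *Slc7a3*, another carrier of cationic amino acids, had 1, 2, 0 and 10 reads in parental, 21, 18, 24 and 29 in Spl-primed and 31, 18, 17 and 25 in Tu-primed libraries. Its log2 rises of 2.61 (edgeR adjusted p = 0.00200) and 2.64 (edgeR adjusted p = 0.00123) rest on these few reads and missed the threshold with a transcript length offset. Between the primed groups the glycine carrier *Slc6a9* was called (log2 -0.25, edgeR adjusted p = 0.0175, lost without Tu 2, Tu 3 or Spl 3). *Slc43a1* did not have enough counts for a test.

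**Figure D4:**
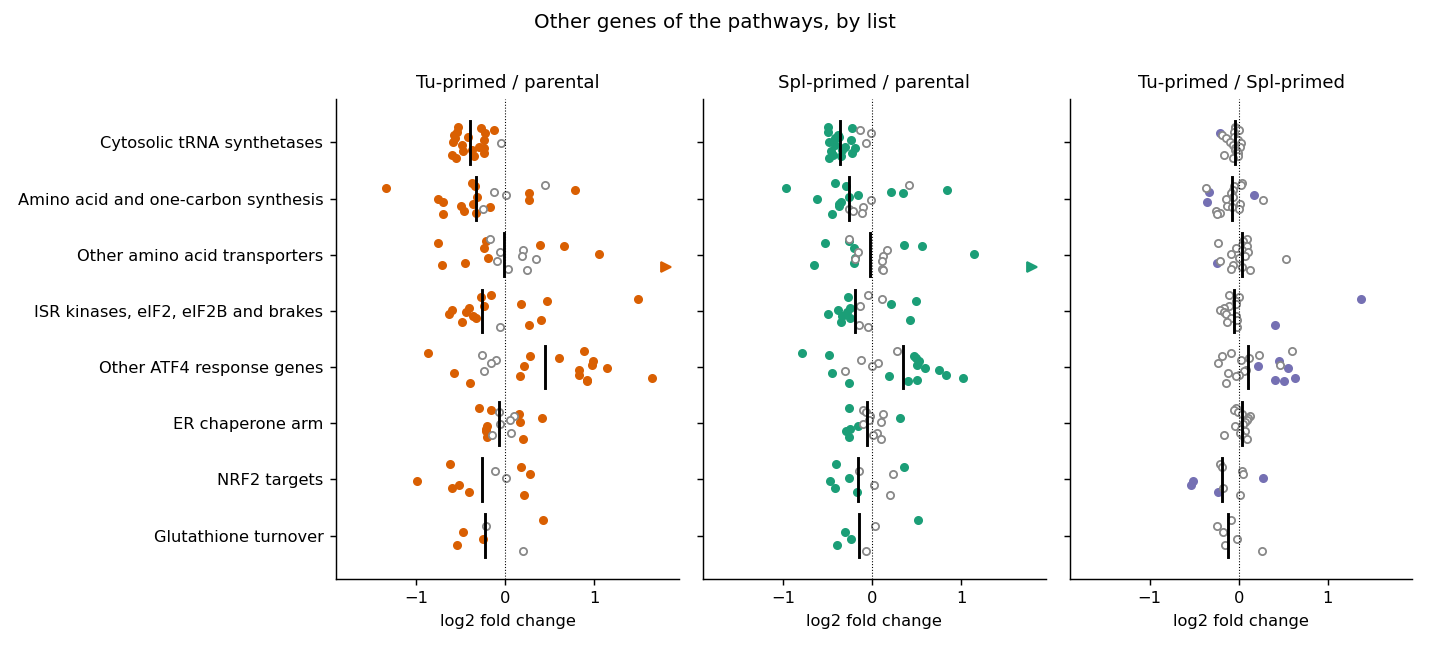
Log2 fold change (horizontal axis) of each tested gene of the 8 lists in the 3 comparisons; filled points passed edgeR's adjusted p of 0.05, open points did not, black bars are list medians, and a triangle at the edge marks *Slc7a3*, which lies beyond the axis. The tRNA synthetases lie left of 0 in both comparisons with parental cells (medians -0.40 and -0.36 on TMM-scaled counts; with TPM as deposited none was called lower), and the other ATF4 response genes lie mostly to the right (0.44 and 0.35).

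Kinases that phosphorylate eIF2α, *Eif2s1* for eIF2α itself, the subunits of eIF2B, the phosphatase genes that end the response and the regulators *Gcn1l1*, *Impact* and *Dele1* formed a list of 16 tested genes. Of these, 5 rose and 10 fell in Tu-primed, and 3 rose and 8 fell in Spl-primed cells against parental ones (medians -0.26 and -0.19). *Eif2ak3* (PERK, the kinase of ER stress) rose from 10.95 to 15.5 CPM in Spl-primed (log2 0.50, edgeR adjusted p = 0.000721) and 15.2 CPM in Tu-primed cells (log2 0.47, edgeR adjusted p = 0.000690). *Eif2ak4* (GCN2, the kinase of amino acid shortage) differed by 0.21 (edgeR adjusted p = 0.0221) and 0.18 (edgeR adjusted p = 0.0393), calls lost without any 1 of 4 libraries (Spl 1, Spl 2, parental 3 or parental 4) and any 1 of 8 (Tu 1, Tu 2, Tu 4, Spl 2, Spl 4, parental 1, parental 3 or parental 4). *Eif2b5*, the catalytic subunit of the exchange factor that phosphorylated eIF2α blocks, fell most, by 0.49 (edgeR adjusted p = 4.53e-05) and 0.63 (edgeR adjusted p = 3.00e-06).

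*Eif2ak2* (PKR, a sensor of double-stranded RNA that is also an interferon-stimulated gene) had the largest rise of that list in Tu-primed cells. It was at 64.3 CPM in parental, 69.6 CPM in Spl-primed and 181 CPM in Tu-primed cells, a log2 rise of 1.49 over parental (edgeR adjusted p = 7.28e-06) and of 1.38 over Spl-primed cells (edgeR adjusted p = 0.000145). *Ppp1r15a* (GADD34), the stress-induced phosphatase subunit, was 0.41 higher in Tu-primed than in Spl-primed cells (edgeR adjusted p = 0.00201, lost with a transcript length offset, the authors' signal and both TPM settings) and 0.26 higher than in parental ones (edgeR adjusted p = 0.00489), the latter turning to -0.016 with a transcript length offset.

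In the list of other ATF4 response genes, more genes rose than fell. Of 20 tested of 24, 13 rose and 3 fell in Tu-primed and 11 rose and 4 fell in Spl-primed cells against parental ones, with medians of 0.44 and 0.35, and 6 were higher in Tu-primed than in Spl-primed cells (median 0.10). The 6 were *Txnip*, *Ndrg1* (log2 0.55), *Vldlr* (0.50), *Ero1l* (0.46), *Vegfa* (0.41) and *Map1lc3b* (0.21). With a transcript length offset that count was 1, so at most 1 of *Ndrg1*, *Ero1l*, *Vegfa* and *Map1lc3b* kept its call. The 3 that fell in Tu-primed cells were *Atf5*, *Sqstm1* (log2 -0.57) and *Xpot* (-0.40), and all 3 fell in Spl-primed cells too. The synthesis members *Asns*, *Psat1* and *Phgdh* were lower in both primed groups, and which regulator moved the genes of this list was not tested. *Txnip*, an inhibitor of thioredoxin and glucose uptake, led in all 3 comparisons, at 38.6 CPM in parental, 78.1 CPM in Spl-primed (log2 1.02, edgeR adjusted p = 3.61e-06) and 121 CPM in Tu-primed cells (log2 1.65, edgeR adjusted p = 5.70e-08), 0.63 above Spl-primed cells (edgeR adjusted p = 0.000771, lost with a transcript length offset).

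*Nupr1*, a stress-induced chromatin protein, rose from 16.3 to 27.5 CPM in Spl-primed (log2 0.75, edgeR adjusted p = 6.93e-05) and 29.1 CPM in Tu-primed cells (log2 0.83, edgeR adjusted p = 1.47e-05). *Ddit4*, an inhibitor of mTORC1, rose from 35.4 to 49.8 CPM (log2 0.49, edgeR adjusted p = 0.000782) and 54.0 CPM (log2 0.61, edgeR adjusted p = 8.65e-05). *Cebpg*, a dimer partner of ATF4, rose by 0.47 (edgeR adjusted p = 8.00e-05) and 0.28 (edgeR adjusted p = 0.00208). *Atf5*, an ATF4 relative that is itself induced in the response, fell most, from 35.1 to 20.4 CPM (log2 -0.78, edgeR adjusted p = 4.59e-05) and 19.2 CPM (log2 -0.87, edgeR adjusted p = 9.98e-06).

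*Atf3* was scarce, at 1.70, 2.08 and 3.16 CPM in parental, Spl-primed and Tu-primed cells, and passed only in Tu-primed against parental cells (log2 0.89, edgeR adjusted p = 0.00181). *Cebpb* fell in Spl-primed (log2 -0.48, edgeR adjusted p = 0.00311) and differed by -0.26 in Tu-primed cells (edgeR adjusted p = 0.0617, passing without Spl 3, parental 1 or parental 3). The lipoprotein receptor *Vldlr* rose in Tu-primed over parental cells by 0.91 (edgeR adjusted p = 9.57e-05). Its calls in Spl-primed against parental cells (log2 0.41, edgeR adjusted p = 0.0307) and between the primed groups (log2 0.50, edgeR adjusted p = 0.0379) were lost without any 1 of 5 libraries (Spl 2, Spl 4, parental 1, parental 2 or parental 3) and any 1 of 7 (any Tu library, Spl 1, Spl 2 or Spl 3). *Stc2*, with 7 to 23 reads a library, rose by 0.83 in each primed group (edgeR adjusted p = 0.0386 in Spl-primed and 0.0323 in Tu-primed), lost with DESeq2 and with a transcript length offset, and also without Spl 2, Spl 3, parental 2, parental 3 or parental 4 in the former and without Tu 1, Tu 4, parental 2, parental 3 or parental 4 in the latter. *Sesn2* (-0.30 in Spl-primed, passing without Tu 3 or Spl 3, and -0.24 in Tu-primed cells) and *Eif4ebp1* (-0.13 and -0.11) did not pass, and *Gdf15* did not have enough counts for a test.

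Genes of the ER chaperone arm of the unfolded protein response, which answers misfolding apart from ATF4, were counted next. Of 16, 4 rose and 6 fell in Tu-primed and 1 rose and 5 fell in Spl-primed cells against parental ones, with medians of -0.07 and -0.05. The main ER chaperone *Hspa5* (BiP) was at 1672, 1553 and 1604 CPM in parental, Spl-primed and Tu-primed cells and passed in neither comparison (edgeR adjusted p = 0.100 and 0.327). *Xbp1* differed by 0.20 in Tu-primed cells (edgeR adjusted p = 0.0332, lost without Tu 2, Tu 3, parental 1 or parental 2). *Edem1*, of ER-associated degradation, rose by 0.31 in Spl-primed (edgeR adjusted p = 0.00746) and 0.41 in Tu-primed cells (edgeR adjusted p = 0.000776), both lost with a transcript length offset, and the lectin chaperone *Calr* fell by 0.29 in the latter (edgeR adjusted p = 0.000231). *Pdia4* fell most in Spl-primed cells, by 0.29 (edgeR adjusted p = 0.000383). Between the primed groups edgeR and DESeq2 both called 0 of the 16, with 1 at an unadjusted p under 0.05.

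NRF2 targets and genes of glutathione turnover stand beside *Slc7a11*, which is also an NRF2 target, and *Chac1*. Of 10 NRF2 targets, 3 rose and 5 fell in Tu-primed and 1 rose and 5 fell in Spl-primed cells against parental ones, with medians of -0.26 and -0.16. Between the primed groups 1 was higher and 3 were lower in Tu-primed cells (median -0.18). *Nqo1*, the standard NRF2 reporter gene, fell from 46.8 CPM in parental to 33.6 CPM in Spl-primed (log2 -0.48, edgeR adjusted p = 0.000191) and 23.6 CPM in Tu-primed cells (log2 -0.99, edgeR adjusted p = 3.38e-07). *Osgin1* was 0.54 lower in Tu-primed than in Spl-primed cells (edgeR adjusted p = 0.00701, lost with a transcript length offset, the authors' signal and both TPM settings). The heme oxygenase gene *Hmox1* fell by 0.26 in Spl-primed cells (edgeR adjusted p = 0.00830) and was 0.27 higher in Tu-primed than in Spl-primed cells (edgeR adjusted p = 0.0295, lost without Tu 1, Tu 2, Tu 3, Spl 1, Spl 2 or Spl 4).

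*Gclm*, a subunit of the enzyme that starts glutathione synthesis, differed by -0.15 in Spl-primed and -0.12 in Tu-primed cells without passing. Its partner *Gclc* rose in Spl-primed cells by 0.36 (edgeR adjusted p = 0.000565) and in Tu-primed cells by 0.17 (edgeR adjusted p = 0.0338). The latter call held in 16 of 25 alternative settings. *Gsr*, which reduces glutathione, rose in Tu-primed cells by 0.28 (edgeR adjusted p = 0.0208, lost without Tu 1 or parental 3). Of 6 tested genes of glutathione turnover, 1 rose and 3 fell in each primed group against parental cells (medians -0.23 in Tu-primed and -0.15 in Spl-primed). The one that rose was *Chac2*, the relative of *Chac1* (log2 0.52, edgeR adjusted p = 0.000354 in Spl-primed and log2 0.42, edgeR adjusted p = 0.000954 in Tu-primed cells), and *Gss*, which completes glutathione synthesis, fell by 0.39 (edgeR adjusted p = 0.00226) and 0.54 (edgeR adjusted p = 0.000130).

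The share of a member's own reads that lay on transcript models with no coding annotation was taken within each library. For *Atf4* it was 0.803%, 1.18%, 2.25% and 0.525% in parental, 2.43%, 3.08%, 3.89% and 2.35% in Spl-primed and 2.89%, 2.67%, 3.43% and 2.56% in Tu-primed libraries. All primed libraries lay above all parental ones. For *Psat1* the means were 1.41% ± 1.29 in parental, 4.31% ± 1.68 in Spl-primed and 5.84% ± 1.91 in Tu-primed libraries (SD, n = 4), and for *Slc7a11* 0.172%, 0.663% and 0.411%. Of 27 two-sided exact permutation tests, 5 reached p = 0.0286, the smallest that 4 against 4 libraries can give: *Atf4* and *Psat1* in both primed groups against parental cells, and *Slc7a11* in Spl-primed against parental cells. After Benjamini-Hochberg adjustment the smallest exact permutation p was 0.154, so 0 of 27 passed. The shares moved with the larger retained-intron and nonsense-mediated-decay share of whole libraries given above.

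**Figure D5:**
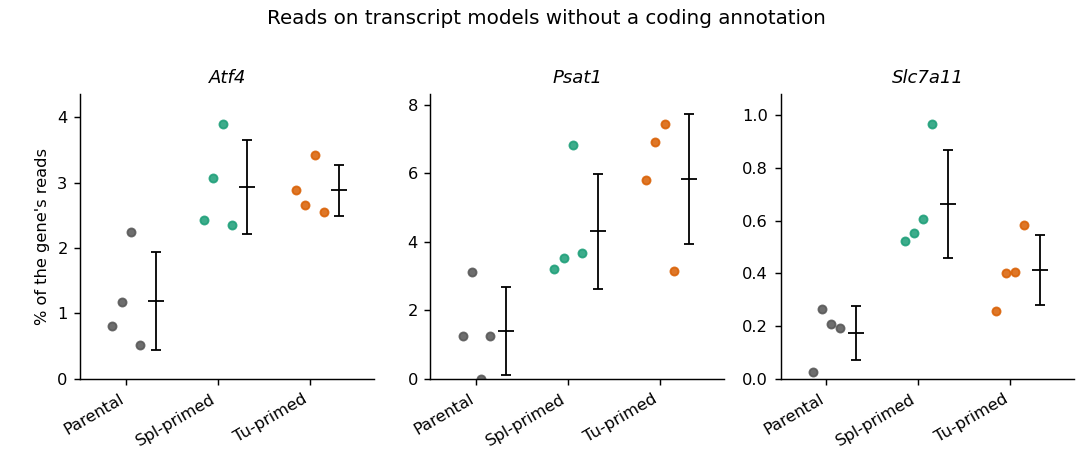
Share of the reads of *Atf4*, *Psat1* and *Slc7a11* assigned to transcript models without a coding annotation, in percent, in each library of the 3 groups; points are libraries and bars mean ± SD of 4, on axes that start at 0. *Atf4* lies at 0.525% to 2.25% in parental and at 2.35% to 3.89% in primed libraries; none of the differences passed after adjustment.

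Coding isoforms shifted in *Slc3a2*, a feature singled out after its values had been seen and given without a test. Transcript Slc3a2-202 took 6.80% ± 1.35 of the gene's reads in parental, 12.03% ± 1.01 in Spl-primed and 11.1% ± 1.57 in Tu-primed libraries (SD, n = 4). Slc3a2-201 took 50.7%, 40.6% and 43.3%. Within *Psat1*, Psat1-205 took 53.8% in parental, 50.3% in Spl-primed and 44.9% in Tu-primed libraries.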

How the data were processed

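For 12 bulk RNA-Seq libraries the authors deposited tables of estimated counts per transcript, not normalized, with TPM and effective lengths, and a normalized signal per gene that was used only as an alternative. The submitters' notes name Trimmomatic 0.39, Salmon 1.4.0 and GRCm38, and the annotation release is not given in the sources used here. Estimated counts were summed per gene with GENCODE M21 and rounded. Transcripts outside it held 0.326% to 0.419% of reads.

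The main test was the quasi-likelihood test of edgeR 4.0.16 (R 4.3.3), run on the 12555 genes that filterByExpr kept, with TMM factors of 0.880 to 1.05, in 1 fit of all 12 libraries and no replicate term. P-values were adjusted by Benjamini-Hochberg and called under 0.05, and each standard error came from the size of the log2 fold change over the square root of its F statistic. Log2 CPM used a prior count of 2, and TPM on the log2 scale a pseudocount of 1. Precision is given by the spread of 4 libraries of 24566183 to 31637755 reads. Scripts were tested on simulated data.

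Alternatives were DESeq2 1.42.0, limma-voom (limma 3.58.1), normalization by RLE or by the upper quartile, the filter dropped or raised to a minimum of 10 counts per library, fits of 8 libraries at a time, a replicate term, counts from protein-coding transcripts alone, a transcript length offset, the signal the authors deposited (tested with limma), and the omission of each library. Both TPM settings (as deposited, and rescaled by TMM factors) were chosen after seeing the data. The members and lists were chosen with earlier results of these data known.

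Named besides the members were 33 genes fixed for their roles, the called gene with the largest change in each list, comparison and direction, and the 5 genes closest to *Slc7a5* by Pearson's r. *Lars*, *Slc38a9*, *Ndrg1*, *Ero1l*, *Vegfa*, *Map1lc3b*, *Sqstm1*, *Xpot* and the *Slc3a2* and *Psat1* isoforms were named after their values were seen.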

Additional observations from a re-analysis of the deposited data

Results flagged for a closer look

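Between the primed groups the effect against parental cells differed, by the test of the difference itself (edgeR quasi-likelihood test, Tu-primed minus Spl-primed), for *Slc7a11* (log2 0.78), *Chac1* (log2 0.62), *Trib3* (log2 0.44) and *Phgdh* (log2 -0.32). The difference for *Phgdh* was lost without any 1 of 8 libraries.

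In 2 of 30 sets of 4 libraries, 1 library stood apart from the rest, where chance gives about 1 in 20 sets. For *Slc3a2* in parental cells it was replicate 2, at 106 CPM against 118 to 119 CPM, with a gap of 0.884 of the whole range, above Dixon's critical value. For *Chac1* in Tu-primed cells it was replicate 1, at 8.66 CPM against 7.01 to 7.24 CPM, with a gap of 0.864. Without that library *Chac1* was still called higher in Tu-primed than in Spl-primed cells.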

How the results depend on the processing

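With TPM as deposited (limma), whose values were shifted for all genes, 6 members were higher and 2 lower in Tu-primed and 2 higher and 0 lower in Spl-primed against parental cells, instead of 4 and 5, and 1 and 7. The lists then gave 63 higher and 7 lower (33 and 64 on counts), and 61 and 4 (24 and 58), and between the primed groups 3 and 2 (10 and 7). Signs turned in Tu-primed cells for *Slc3a2* (0.38), *Aldh18a1* (0.12), *Calr* (0.19), *Eif4ebp1* (0.39), *Farsa* (0.25), *Hspa5* (0.42), *Pdia4* (0.24), *Psph* (0.18), *Slc1a4* (0.22) and *Vars* (0.051). They turned in Spl-primed cells for *Slc3a2* (0.062), *Trib3* (0.16), *Chac1* (0.015), *Aldh18a1* (0.080), *Calr* (0.16), *Eif4ebp1* (0.31), *Farsa* (0.41), *Glul* (0.24), *Gss* (0.037), *Hmox1* (0.15), *Hspa5* (0.31), *Mthfd1* (0.11), *Mthfd2* (0.013), *Pdia4* (0.10), *Psph* (0.26), *Shmt2* (0.048), *Slc1a4* (0.14), *Slc6a9* (0.14) and *Vars* (0.13). Those listed were called on counts or on TPM. The member *Slc7a11*, called on neither in Spl-primed cells, turned there as well (0.10). With TPM rescaled by TMM factors no member changed sign, and the lists gave 18 higher in Tu-primed and 14 in Spl-primed cells, and 2 higher and 3 lower between the primed groups. A transcript length offset gave 19, 14, 2 and 3 for these counts, and the authors' normalized signal (limma) 19, 14, 2 and 3, with 2 members higher in Tu-primed cells instead of 4. *Ppp1r15a* turned to -0.016 in Tu-primed cells with the offset and to -0.016 with the authors' signal, and *Edem1* to -0.015 in Spl-primed cells with the latter. The 1 member lower in Tu-primed than in Spl-primed cells became 2 with DESeq2 and with protein-coding transcripts only, and 0 with the offset, the authors' signal, both TPM settings and the replicate term. The cause of these changes was not tested.

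Same-numbered libraries deviated together weakly or not at all (r between -0.16 and 0.15), which cannot show whether the numbers pair the samples. In the order of the numbers, Tu-primed with parental libraries gave r of 0.15, 0.084, 0.088 and 0.13. Tu-primed with Spl-primed libraries gave -0.14, 0.016, -0.16 and -0.096, and Spl-primed with parental ones -0.071, 0.0012, 0.072 and -0.16. With a replicate block the lists gave 4 lower instead of 7 between the primed groups, all genes 488 higher and 256 lower instead of 585 and 373, and *Ddit3* (adjusted p = 0.0754) and *Slc3a2* (0.0530) in Tu-primed cells and *Phgdh* between the primed groups (0.0736) missed edgeR's threshold. Leaving out each library gave 2 to 4 members higher (2 without Tu 1) and 4 to 5 lower in Tu-primed, 1 to 2 (2 without parental 1) and 7 to 7 in Spl-primed cells against parental ones, and 3 to 3 and 0 to 2 between the primed groups. The lists gave 23 to 34 and 58 to 65, 17 to 25 and 51 to 63, and 6 to 11 (6 without Tu 1, Tu 2, Tu 3, Spl 1 or Spl 2) and 3 to 10 (3 without Tu 2 or Tu 3). The calls of *Ddit3*, *Slc7a3*, *Stc2* and *Cbs* rest on few reads.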
